A study of Mus musculus with 7 samples.

Results

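The milk protein antigens are 7 genes whose products make up most of the protein of mouse milk and which thymic epithelial cells also transcribe. They are 4 casein genes (Csn1s1, Csn2, Csn1s2a and Csn3), 2 genes of the whey acidic protein family (Wap and Wfdc18) and Lalba, the gene of alpha-lactalbumin. They were chosen by name, as milk protein genes, and are 7 of the 20839 genes listed in any library of the series. Caseins carry calcium and phosphate in milk as micelles. Kappa-casein, the product of Csn3, keeps the micelles in solution, and alpha-lactalbumin is the subunit of lactose synthase that turns a galactosyltransferase to making lactose. In the mammary gland these genes respond to prolactin through STAT5. Medullary thymic epithelial cells transcribe a great many genes of other organs, many of them under the nuclear regulator Aire, and this display teaches developing T cells to tolerate those organs.

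Thymic epithelium, sorted for EpCAM and against CD45, was measured with droplet single-cell RNA sequencing in 7 libraries, each from 3 pooled thymi. The design followed the cells after a block of RANK ligand (RANKL), a signal that Aire-expressing cells depend on, and in a lineage trace of cells that had expressed Aire. The Aire trace library came from C57BL/6 mice with the Aire-CreERT2-R26-CAG-Stopfl-zsGreen alleles, in which tamoxifen lets Cre made from the Aire locus switch on zsGreen. These mice received 2 mg of tamoxifen on alternate days for 10 days and were 6 weeks old. The other 6 libraries came from C57BL/6 mice that received 3 injections of 100 µg of antibody. Anti-RANKL libraries were made at weeks 2, 4, 6 and 10, at ages of 4, 6, 8 and 12 weeks. Isotype control libraries were made at weeks 2 and 10, at ages of 4 and 12 weeks, so weeks 4 and 6 have no control of their own age. Each group is 1 library, so values of a group carry no replicate error, and cells of a library are not replicates.

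The Aire trace library held 1387 cells with 15549812 UMIs (unique molecular identifiers, counted transcripts). The week 2 isotype control held 1163 cells with 22197691 UMIs, and the week 10 isotype control 1271 cells with 13304728. The anti-RANKL libraries held 1222 cells with 15089673 UMIs at week 2, 1475 cells with 7563528 at week 4, 730 cells with 3857876 at week 6 and 1205 cells with 11443865 at week 10. The weeks 4 and 6 libraries were the shallowest, and the week 2 isotype control was the deepest. Median UMIs per cell were 9213 in the Aire trace, 16809 and 8333 in the isotype controls of weeks 2 and 10, and 11145.5, 4779, 4299.5 and 7332 in anti-RANKL weeks 2, 4, 6 and 10. Of 8403 different barcodes, 50 occurred in more than 1 library, in 100 cells. Leaving those cells out moved none of 139 values beyond their interval or across a threshold.

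The label of the sorted cells was checked against marker genes in the 8220 cells without a UMI of Ptprc, the gene of CD45. Epcam had a UMI in 90.4% of them, Krt8 in 97.2% and H2-Aa, an MHC class II gene, in 98.6%. Foxn1, the transcription factor that defines thymic epithelium, had a UMI in 31.9%, and Psmb11 and Prss16, genes of the cortex, in 12.2% and 33.3%. Of the T cell markers, Lck had a UMI in 7.24%, Cd3d in 2.37% and Cd3e in 1.07%. Markers of mammary luminal epithelium were present but rare, with Elf5 in 1.28%, Prlr in 5.56% and Kit in 11.3% of the cells. The cells were split by their Aire value, the natural log of 1 plus UMIs per 10000, into Aire 0 (5159 cells), Aire up to 1.5 (1292 cells) and Aire above 1.5 (1769 cells), and 1.5 equals 3.48 UMIs per 10000. Median depths of these groups were 6484, 12210 and 12910 UMIs, so shares are also given at an equal depth of 2000 UMIs per cell, as the share expected when each cell is thinned to that depth. Below 2872 UMIs a single Aire UMI lies above 1.5, which was the case in 22 cells, all of weeks 4 and 6 of anti-RANKL. At 2000 UMIs per cell the housekeeping gene Emc7 had shares of 15.3%, 15.8% and 15.2% over the 3 Aire groups, and Gapdh 78.4%, 83.0% and 86.9%.

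The casein genes lie together on chromosome 5 and the others apart. In build GRCm38, Csn1s1 (ENSMUSG00000070702.9) spans chr5:87666208-87682578 on the plus strand, and Csn2 (ENSMUSG00000063157.9), the beta-casein gene, spans chr5:87692624-87699630 on the minus strand. Csn1s2a (ENSMUSG00000061937.7) spans chr5:87774567-87788797 and Csn3 (ENSMUSG00000001622.15) spans chr5:87925579-87932665, both on the plus strand. The gaps between neighbours are 10.0, 74.9 and 137 kb, and other genes lie between Csn1s2a and Csn3. Wap (ENSMUSG00000000381.10) spans chr11:6635482-6638637 on the minus strand, and Wfdc18 (ENSMUSG00000000983.13) spans chr11:83709015-83711348 on the plus strand. Lalba (ENSMUSG00000022991.5) spans chr15:98480400-98482721 on the minus strand. All are protein-coding in the annotation. An antisense gene, 1700066N21Rik, overlaps Csn3 on the other strand and is listed in no library.

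Detection split the members into a common pair and a rare group. Wfdc18 had a UMI in 6423 of 8220 cells (78.1%) and Csn2 in 2914 (35.5%). Csn1s2a had one in 169 cells (2.06%), Csn3 in 117 (1.42%), Csn1s1 in 106 (1.29%), Wap in 51 (0.620%) and Lalba in 15 (0.182%). Among the rare members most positive cells held a single UMI, from 53.8% of the cells with Csn1s1 to 66.7% of those with Wap, while the 10 cells with the most UMIs held a large part of the transcripts. They held 83.4% of the 332 UMIs of Wap, 56.1% of the 2255 of Csn1s2a, 48.6% of the 508 of Csn3 and 38.2% of the 348 of Csn1s1. Csn2 was spread more evenly: its top 10 cells held 6.10% of 43136 UMIs, and 1037 cells had at least 10 UMIs each. Single cells reached 317 UMIs of Csn2, 314 of Csn1s2a and 3892 of Wfdc18. In all, 1182 cells had no member, 4624 had 1, and 1 cell had 6 of the 7.

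Free RNA in droplets can give UMIs to cells that do not express a gene, so the members were also counted in the 233 cells with a UMI of Ptprc, whose median depth was 10161 UMIs against 8014.5 in the others. Csn2 had a UMI in 36.1% of these cells (95% CI 29.9 to 42.6) and Wfdc18 in 81.1%, shares like those of the cells without Ptprc. Of the Ptprc-positive cells, 82.4% also had a UMI of Epcam and 35.2% one of Aire, so they are not free of epithelial transcripts. Among the 24 of them with a Cd3 UMI and no Epcam (median depth 4701), 4 had Csn2 (16.7%, 95% CI 4.74 to 37.4), 12 had Wfdc18 (50%) and 4 had Aire. The Csn2 share in Aire 0 cells, 14.9%, lies inside that interval, and the share above 1.5, 81.6%, lies over it. Whether these UMIs come from free RNA was not tested. The rare members had UMIs in up to 4.72% of the 233 cells (11 cells for Csn1s2a, 10 for Csn1s1, 8 for Csn3, 2 for Wap, 0 for Lalba), against shares of 0.182% to 2.06% in the cells without Ptprc. The ratio of Wfdc18 to Csn2 UMIs was not constant: it was 34.3 in Aire 0 cells, 5.47 up to 1.5, 0.637 above 1.5 and 3.04 in the Ptprc-positive cells.

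Csn2, the gene of beta-casein, was detected more often with each step in Aire. Its UMIs were found in 14.9% of Aire 0 cells (95% CI 14.0 to 15.9), 54.2% of cells up to 1.5 (51.4 to 56.9) and 81.6% above 1.5 (79.7 to 83.4). At 2000 UMIs per cell the shares were 6.94%, 30.4% and 58.3%, so the order held at equal depth. The level in positive cells differed too, with medians of 1.82, 3.89 and 7.93 UMIs per 10000, and the middle 50% of positive cells above 1.5 lay between 2.74 and 17.3. Summed over cells, Csn2 made 0.917, 5.53 and 10.9 of every 10000 UMIs. The highest single cell, at 290 per 10000, was in the group up to 1.5.

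The Csn2 difference ran the same way in every library. Above 1.5, the share of cells with Csn2 was 86.4% in the Aire trace, 96.1% and 78.3% in the isotype controls of weeks 2 and 10, and 74.2%, 45.5%, 51.4% and 79.9% in anti-RANKL weeks 2, 4, 6 and 10. In Aire 0 cells of the same libraries it was 11.9%, 48.5%, 32.5%, 9.89%, 1.44%, 18.2% and 26.3%. Every library was higher above 1.5, and the ranges over libraries overlapped only through the 48.5% of the week 2 isotype control in Aire 0 cells and the 45.5% of week 4 above 1.5. Weeks 4 and 6 of anti-RANKL were the lowest above 1.5. The week 4 value rests on 10 of 22 cells (95% CI 24.4 to 67.8). With libraries weighted equally, the mean share was 21.2% ± 15.9 (SD, n = 7) in Aire 0 cells, 44.8% ± 22.5 up to 1.5 and 73.1% ± 18.3 above 1.5. Median levels in positive cells above 1.5 ran from 4.08 UMIs per 10000 at week 6 to 9.71 in the Aire trace.

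**Figure D1:**
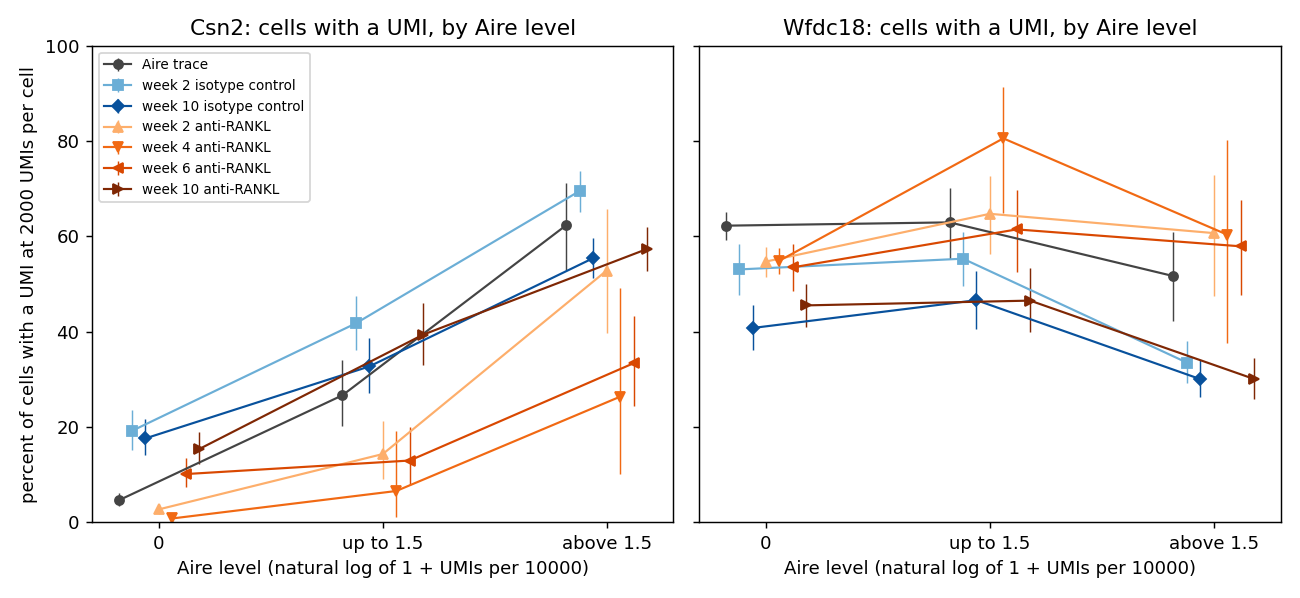
Percent of cells with a UMI of Csn2 (left) and Wfdc18 (right) at 2000 UMIs per cell, against Aire level, for the 7 libraries as points joined by lines, with bars for 95% Clopper-Pearson intervals (counting error only). Csn2 is higher at each Aire level in all 7 libraries, from 0.796% to 19.2% in Aire 0 cells and 26.4% to 69.6% above 1.5, while Wfdc18 above 1.5 spans 30.0% to 60.7% without 1 direction.

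Wfdc18, a small secreted protein of the whey acidic protein family, was found in most cells at every Aire level and at lower levels in cells with much Aire. It had a UMI in 76.5% of Aire 0 cells, 85.1% up to 1.5 and 77.8% above 1.5. At 2000 UMIs per cell those shares were 54.0%, 55.4% and 35.5%. At full depth the share was higher above 1.5 than in Aire 0 cells in 7 of 7 libraries, with library means of 83.9% and 74.2%. At 2000 UMIs it was lower in 4 of 7, with means of 46.3% and 52.1%, so the order differs between the depths. The median level in positive cells was 5.70, 5.03 and 2.07 UMIs per 10000, and Wfdc18 made 31.4, 30.2 and 6.95 of every 10000 UMIs. Over all cells pooled the difference at full depth was 1.28 points, and libraries enter it by their numbers of cells. It was -3.52 without the week 2 isotype control and -0.255 without week 4 of anti-RANKL, and otherwise ran from 0.445 without week 6 to 4.88 without the week 10 isotype control. It was 2.46 without the Aire trace, 3.22 without week 2 of anti-RANKL and 3.00 without week 10.

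Across libraries the share at 2000 UMIs and the summed level of Wfdc18 gave different orders. In Aire 0 cells the share was 62.3% in the Aire trace, 53.1% and 40.8% in the isotype controls of weeks 2 and 10, and 54.7%, 54.9%, 53.5% and 45.5% in anti-RANKL weeks 2, 4, 6 and 10. Above 1.5 the same libraries gave 51.7%, 33.5%, 30.0%, 60.7%, 60.4%, 57.9% and 30.1%. The Aire trace, both controls and week 10 were lower above 1.5, and weeks 2, 4 and 6 of anti-RANKL were higher. The summed level was lower above 1.5 in 7 of 7 libraries. It was 40.2 UMIs per 10000 in Aire 0 cells and 10.9 above 1.5 in the Aire trace. The isotype controls gave 46.8 and 5.37 at week 2, 26.6 and 5.60 at week 10. In anti-RANKL weeks 2, 4, 6 and 10 it was 27.0, 23.2, 15.5 and 30.2 in Aire 0 cells against 23.0, 9.48, 8.42 and 6.29 above 1.5. Week 2 of anti-RANKL had the smallest difference of the 7.

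The rarer caseins followed Csn2 in the order of their shares. Over the libraries that list it, Csn1s2a, an alpha-S2 casein gene, had a UMI in 0.820% of Aire 0 cells, 4.20% up to 1.5 and 5.80% above 1.5 (27, 47 and 95 cells). Csn1s1, the alpha-S1 casein gene, was found in 0.557%, 1.68% and 3.66% (21, 21 and 64 cells), and Csn3 in 0.345%, 1.92% and 4.58% (13, 24 and 80 cells). At 2000 UMIs per cell, over all 7 libraries, the shares from Aire 0 to above 1.5 went from 0.155% to 2.23% for Csn1s2a, from 0.150% to 1.43% for Csn1s1 and from 0.152% to 1.38% for Csn3. The level per positive cell had no such order: its medians by Aire group were 0.966, 1.35 and 1.27 UMIs per 10000 for Csn1s2a, 1.56, 1.67 and 1.63 for Csn1s1 and 4.55, 1.53 and 1.00 for Csn3. The median of Csn3 was lower with more Aire, on 13 positive cells in the Aire 0 group. These medians are not at equal depth, and a cell with 1 UMI has a level set by its depth alone. Such cells were 92.6% of positive Aire 0 cells for Csn1s2a, 85.7% for Csn1s1 and 46.2% for Csn3. Above 1.5 they were 51.6%, 45.3% and 56.25%. Median depth was 6484 UMIs in all Aire 0 cells and 12910 above 1.5. The part of depth in the medians was not tested. Over all 7 libraries the Csn1s2a share was 0.523% in Aire 0 cells and 3.64% up to 1.5, and 0.271% and 2.14% without the week 2 isotype control. That of Csn3 up to 1.5 was 1.86%, and 1.22% without it.

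At full depth the week 2 isotype control, the deepest library, held the most cells with a rare casein. Csn1s2a was found in 86 of its 1129 cells, in 31 of 1247 in the week 10 control and in 22 of 1318 in the Aire trace. Anti-RANKL week 2 had 4 of 1184 and week 10 had 26 of 1172, and weeks 4 and 6 do not list Csn1s2a. Csn1s1 was found in 10 cells of the Aire trace, 34 and 32 of the controls of weeks 2 and 10, and 2, 6 and 22 of anti-RANKL weeks 2, 6 and 10. Csn3 was found in 8 cells of the Aire trace, 51 and 28 of the controls, and 6, 3 and 21 of anti-RANKL weeks 2, 6 and 10. At 2000 UMIs the shares in the week 2 control, the week 10 control and anti-RANKL week 10 were 2.51%, 1.32% and 1.11% for Csn1s2a, 0.862%, 1.01% and 0.863% for Csn1s1, and 1.24%, 0.967% and 0.658% for Csn3. Week 4 lists neither gene. A gene that a library does not list has no value there, since the authors kept only genes found in at least 3 cells. It enters sums over all libraries, fits, r and ratios as 0. The share of cells was higher above 1.5 than in Aire 0 cells in 5 of 5 libraries that list Csn1s2a, in 6 of 6 for Csn3 and in 5 of 6 for Csn1s1, where week 2 of anti-RANKL had 0 of 62 cells above 1.5 (which allows a share of up to 4.84%) against 2 of 981. At 2000 UMIs it was higher in 4 of 6 for Csn1s1, as week 6 had 0.494% in Aire 0 cells and 0.197% above 1.5.

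Wap and Lalba were the rarest members. Over the 4 libraries that list it, Wap had a UMI in 0.736% of Aire 0 cells, 0.919% up to 1.5 and 1.59% above 1.5 (17, 9 and 25 cells). The Aire trace held 18 of its cells, the controls of weeks 2 and 10 held 15 and 7, and week 10 of anti-RANKL held 11. Over all 7 libraries the Aire 0 share was 0.330%, and 0.170% without the Aire trace. Lalba is listed by both isotype controls and week 10 of anti-RANKL, with 8, 4 and 3 cells. All 15 of its cells had Aire: 2 were up to 1.5, and 13 were above it (0.892% of 1458 in those libraries). None of the 1280 Aire 0 cells of the 3 libraries had a UMI of Lalba, which allows a share with a UMI of up to 0.234%. Of the 15 positive cells 9 hold 1 UMI, and Aire 0 cells are shallower, so cells without a UMI may still hold the transcript. Over all 1769 cells above 1.5 the Lalba share was 0.735%, and 0.457% without the week 2 isotype control.

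Whether members differed with Aire within libraries was tested with limma on UMIs summed over the cells of each library and Aire level, with library as block, across 15736 genes in 21 pools. Csn2 was among the genes with the largest log2 differences toward higher Aire. Its level in Aire 0 pools was 0.470 UMIs per 10000 in the Aire trace, 3.03 and 2.39 in the controls of weeks 2 and 10, and 0.201, 0.0462, 0.628 and 2.47 in anti-RANKL weeks 2, 4, 6 and 10, against 13.0, 13.1, 8.96, 11.1, 3.92, 5.29 and 9.18 above 1.5. No Aire 0 pool reached the lowest pool above 1.5. Csn2 was higher above 1.5 by 3.31 on the log2 scale (SE 0.392, adjusted p 3.81e-06, higher in 7 of 7 libraries), rank 6 when all genes tested are ordered from the most positive log2 difference down. Csn1s2a was higher by 1.36 (SE 0.363, adjusted p 0.00545, higher in the 5 libraries that list it). Csn1s1 passed narrowly, at 0.45 (SE 0.160, adjusted p 0.0279, higher in 4 libraries and lower in 2). Wfdc18 was lower, with a log2 difference of -1.69 (SE 0.268, adjusted p 7.56e-05, lower in 7 of 7 libraries).

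Of the 6 members tested, 3 were higher above 1.5 and 1 was lower, where 20.3% of all genes were called higher (3189) and 31.7% lower (4991). Wap, at 0.62 (adjusted p 0.101, range 0.0461 to 0.184), and Csn3, at 0.41 (adjusted p 0.146, range 0.0574 to 0.402), did not pass, and Lalba was under the minimum of 50 cells and was not tested. Wap passed in 2 of 18 alternatives and Csn3 in none. Up to 1.5 against 0, Csn2 was the 1 member called, higher by 1.99 (SE 0.392, adjusted p 0.00188, 7 of 7 libraries), where 8.06% of genes were called higher. It missed the threshold with an upper limit of 1.0, at 0.85 (adjusted p 0.256, in a range of 0.000172 to 0.256 over 17 alternatives). The calls above 1.5 of Csn2, Csn1s2a and Wfdc18 held in every alternative, with log2 differences of 2.65 to 3.65, 0.54 to 2.55 and -1.93 to -1.16. The Csn1s1 call was lost in 6 of 18. Its adjusted p was 0.101 (log2 0.29) without the Aire trace, 0.0587 (log2 0.42) without the week 2 isotype control, 0.0735 (0.40) without the week 10 isotype control and 0.0639 (0.43) without week 10 of anti-RANKL, against 0.45 with all. It was 0.0833 with no library block and 0.0549 with an upper limit of 1.0, in a range of 0.0132 to 0.101. The log2 difference of Csn1s1 ran from 0.13 to 1.13 over the alternatives. That of Csn3 ran from 0.11 to 1.34 and that of Wap from 0.21 to 1.45. Without the Aire trace, Wap was at 0.21 and Csn3 at 0.23. Scaling by the median of ratios called 3992 genes higher and 3691 lower, so that 52.0% of calls were higher in place of 39.0%. The median of all genes was -0.07 with scaling to the total.

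These fits hold the genes that a library does not list as 0, which gives a difference of 0 there. Fitted on the libraries that list the gene alone, an alternative chosen after seeing the data, Csn1s2a was higher above 1.5 by 1.90 (adjusted p 0.00163, range 0.00163 to 0.0463) and Csn1s1 by 0.52 (adjusted p 0.0205, range 0.0132 to 0.101). Wap, at 1.09 (adjusted p 0.0668), and Csn3, at 0.48 (adjusted p 0.130), did not pass there either. Up to 1.5, Csn1s2a differed by 0.93 (adjusted p 0.0810, range 0.00731 to 0.301) over all libraries and by 0.52 without the week 2 isotype control. It passed in 2 of 18 alternatives, among them its listing libraries, at 1.31 (adjusted p 0.0293).

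Other genes of milk and lactation went both ways above 1.5. Of 15 tested genes of milk fat, milk glycoproteins and milk enzymes, 7 were higher and 4 lower, with a median log2 difference of 0.30. Of the 5 most detected, Thrsp, a regulator of fat synthesis in the mammary gland, was higher by 2.88, Muc1, a mucin of the milk fat globule, by 2.51, and Lpo, lactoperoxidase, by 1.24. Plin2, which coats lipid droplets, was lower (-0.49), and Mfge8 (-0.26) did not pass. Xdh (-1.78), the xanthine oxidoreductase of the milk fat globule membrane, is named for its value. Of 15 tested regulators of lactation, 5 were higher and 8 lower, with a median of -0.39. Of the 5 most detected, Stat5a, which carries the prolactin signal, was higher by 1.10 and Cish, a target of that signal, by 0.33. Id2 (-2.14), Nfib (-1.87) and Socs2 (-0.48) were lower. Prl is not listed.

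Relatives of the members and neighbours of the caseins were counted in the same way. Of 7 tested genes of the whey acidic protein family besides the members, none was higher and 1, Wfdc2, was lower (-1.62), with a median of 0.18. Wfdc21 (0.89), Slpi (0.79), Wfdc15b (0.23) and Wfdc12 (0.18) did not pass. Of 6 tested genes on the list of casein neighbours on chromosome 5, 4 were higher and none lower, with a median of 0.52. Amtn (0.79), an enamel protein gene, Csn1s2b (0.73), the other alpha-S2 casein gene, and Odam (0.24), a tooth-associated gene, were higher, as was Sult1e1 (0.68). Smr3a (0.37) and Sult1d1 (0.17) did not pass. The gut and pancreas antigens, a comparison set, had 6 of 12 higher and none lower (median 1.15). Of their 5 most detected, Cck was higher by 2.03, Nts by 1.62 and Tff3 by 1.08, and Pyy (1.22) and Reg3g (0.40) did not pass. The airway, salivary and testis antigens had 3 higher and 2 lower of 9 (median 0.04), with Dcpp1 at 1.26, Bpifb1 at 0.58 and Bpifa1 at -2.52, while Scgb1a1 (-0.13) and Sftpd (-0.18) did not pass. Fezf2, the other regulator of such antigens, was higher by 1.90. Of 5 housekeeping genes, Gapdh was higher (0.53) and Chmp2a lower (-0.20), with a median of -0.12.

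Markers of other cell types were fitted in the same way. Of 10 markers of thymic epithelium, 3 were higher and 6 lower, with H2-Aa at 1.10, Krt5 at -3.04, Krt18 at -0.79 and Epcam at -0.42. Of 7 mammary luminal markers, 2 were higher and 3 lower. Prlr was higher by 0.40, Pgr (-0.59), Cited1 (-0.56) and Esr1 (-0.39) were lower, and Kit (0.20) did not pass. Of 7 T cell markers, 1 was higher (Cd4, at 0.56), and Lck (0.15) and Cd3d (0.16) did not pass. Of the B cell markers, Cd79a was higher by 0.58 and Cd79b by 0.47. Myeloid markers had 3 of 4 higher, with Lyz2 at 2.21, Flt3 at 0.35 and Csf1r at 0.33. Cd79b was found in 9.26% and Cd79a in 1.82% of cells, and of the myeloid markers Lyz2 was found in 30.3%, Cd68 in 7.09% and Itgax in 0.231%. Of 3 fibroblast markers, Col1a1 was higher (0.55) and Dcn lower (-2.67). Pecam1 of the endothelium (0.28) did not pass. The part of such cells in the member differences was not tested.

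Over the 21 pools of library and Aire level, each member had its own set of genes most like it by Pearson r on the log2 scale. Pools of a library share thymi and depth, and r is given as a description. For Csn2 the 3 nearest of 15736 genes were Plagl1 (0.967), Cyba (0.963) and Srgn (0.962). For Wfdc18 they were Krt17 (0.892), Sfn (0.885) and Sod1 (0.870), a keratin, an epithelial 14-3-3 protein gene and a superoxide dismutase. For Csn1s2a they were Mep1b (0.951), Ptpn5 (0.939) and Capn8 (0.933), the first and last of which are genes of gut epithelium. The nearest genes were 1810065E05Rik (0.935), Krt73 (0.921) and Lefty2 (0.916) for Csn1s1, Saa4 (0.977), 4933431M02Rik (0.961) and Adig (0.935) for Wap, and Cyp2d34 (0.840), Gm12589 (0.821) and Kng2 (0.798) for Csn3. Among the members, Csn1s1 and Csn1s2a had an r of 0.816, Csn1s1 and Wap, on another chromosome, one of 0.791, and Csn2 and Csn1s2a one of 0.717. Wap was at 0.829 UMIs per 10000 in the Aire trace pool above 1.5 and at 0.0668 or less in every other pool. Its 174 UMIs in that pool came from 6 cells, and the highest of them held 101. Csn1s1 was also highest in that pool, at 0.191. Weeks 2, 4 and 6 of anti-RANKL do not list Wap and enter as 0. The r values of Wap, those with its nearest genes included, may thus rest largely on that pool. They were not computed without it. Csn2 and Wfdc18 pointed apart, at -0.437. Csn2 had an r of 0.774 with Aire and -0.806 with Ccl21a, the chemokine gene of another medullary state, and Wfdc18 one of -0.609 with Aire and 0.770 with Ccl21a.

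Caseins were also compared cell by cell, to see whether neighbours on the chromosome are found in the same cells. Of the 106 cells with Csn1s1, 19 (17.9%, 95% CI 11.2 to 26.6) had Csn1s2a, against 1.85% of cells without Csn1s1. From the shares within each library and Aire level 5.16 such cells were expected, so the pair occurred together 3.68 times as often. The difference was 16.1 points over all cells and 13.5 weighted over libraries and Aire levels, and among cells with Aire the share was 21.2%. The cells with both had a median depth of 16623 UMIs, against 12190.5 for all with Csn1s1 and 8014.5 for all cells. The week 2 isotype control holds 11 of the 19. Without it the share was 11.1% and the difference over all cells 10.0 points, while the ratio to the expected number was 3.66. Csn1s1 and Csn3, which lie farther apart, shared 12 cells (11.3% of those with Csn1s1, 6.94% without the week 2 isotype control), 3.16 times the expected number. Csn1s2a and Csn3 shared 16 (9.47% of those with Csn1s2a), 2.31 times. That ratio was 4.46 without the week 2 isotype control and 1.90 without week 10 of anti-RANKL.

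Csn2 was present in most cells with another casein. It was found in 92 of 106 cells with Csn1s1 (86.8%, against 34.8% without), in 145 of 169 with Csn1s2a (85.8%) and in 109 of 117 with Csn3 (93.2%). Within library and Aire level these were 1.25, 1.16 and 1.23 times the expected number, where the median of 6169 genes was 1.08. Of those genes, 7.20%, 26.3% and 10.5% were at or above these ratios. Of the 8220 cells, 2656 had 1 casein, 267 had 2, 32 had 3 and 5 had all 4. All 5 of the last had Aire above 1.5. In that group 171 of 1769 cells had 2 caseins and 21 had 3, against 31 and 2 of 5159 in Aire 0 cells. Of the members that lie elsewhere in the genome, Lalba reached 2 times the expected number with each rare casein, on few cells, and Wap with none. Csn1s1 and Wap shared no cell (0 of 106, 95% CI up to 3.42%), and 1.31 were expected. Lalba shared 5 cells with Csn1s2a (4.87 times the expected number), 2 with Csn1s1 (3.46 times) and 2 with Csn3 (2.53 times). All 15 cells with Lalba had Csn2, where 12.8 were expected within library and Aire level (1.17 times). Pairs with Wfdc18 lay between 0.982 and 1.04 times the expected number.

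The ratio for the rarer caseins was set beside that of every gene found in 50 to 500 cells, 6168 genes, a comparison chosen after seeing the data. At least 2 times the expected number was reached with Csn1s1 by 16.2% of these genes, with Csn1s2a by 10.5% and with Csn3 by 9.60%, and all 3 pairs of these members with each other reached it. The medians over all genes were 1.16, 1.22 and 1.09. Of 6 genes in that range on the list of casein neighbours, 6 reached 2 times with Csn1s1 (median 3.91). With Csn1s2a 5 did (3.72), and with Csn3 5 did (3.19). These counts were 6, 5 to 6 and 5 when each library was left out in turn. BC037156, a lincRNA gene of the locus outside that list, was at 2.87, 2.54 and 3.43. Odam shared 15 cells with Csn1s1 (6.99 times) and 17 with Csn3 (6.49 times), and no other gene in that range of cells had a ratio as high in either case. Amtn shared 24 cells with Csn1s2a (4.36 times) at a distance of 587 kb, and Csn1s2b shared 18 (3.81 times) at 19.3 kb, so nearness within the locus did not order the ratios. Csn3 and Sult1d1, 357 kb apart, shared 3 cells, 0.909 times the expected number. Of 8 gut and pancreas antigens in range, 5, 1 and 2 reached 2 times with Csn1s1, Csn1s2a and Csn3 (medians 2.17, 1.87 and 1.59), and of 8 airway, salivary and testis antigens 3, 1 and 0 (1.56, 1.52 and 1.29). Of 5 genes of the whey acidic protein family in range, 3, 1 and 0 reached it (medians 2.25, 1.72 and 1.44). None of 6 T cell markers in range did with any of the 3. Of 6 mammary luminal markers in range, 2, 1 and 1 reached it (medians 1.33, 1.32 and 0.802). Of 2 myeloid and 2 fibroblast markers in range, 1 each reached it with Csn1s2a and none with Csn1s1 or Csn3. Of the B cell markers, Cd79a and Ms4a1 had ratios of 2.38 and 2.92 with Csn1s1, on 9 and 4 cells. Cd79a was at 1.55 with Csn1s2a and 2.43 with Csn3, and Ms4a1 at 1.55 and 1.22. The part of such cells in these ratios was not tested. These ratios describe cells that share libraries and depth and were not tested.

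**Figure D2:**
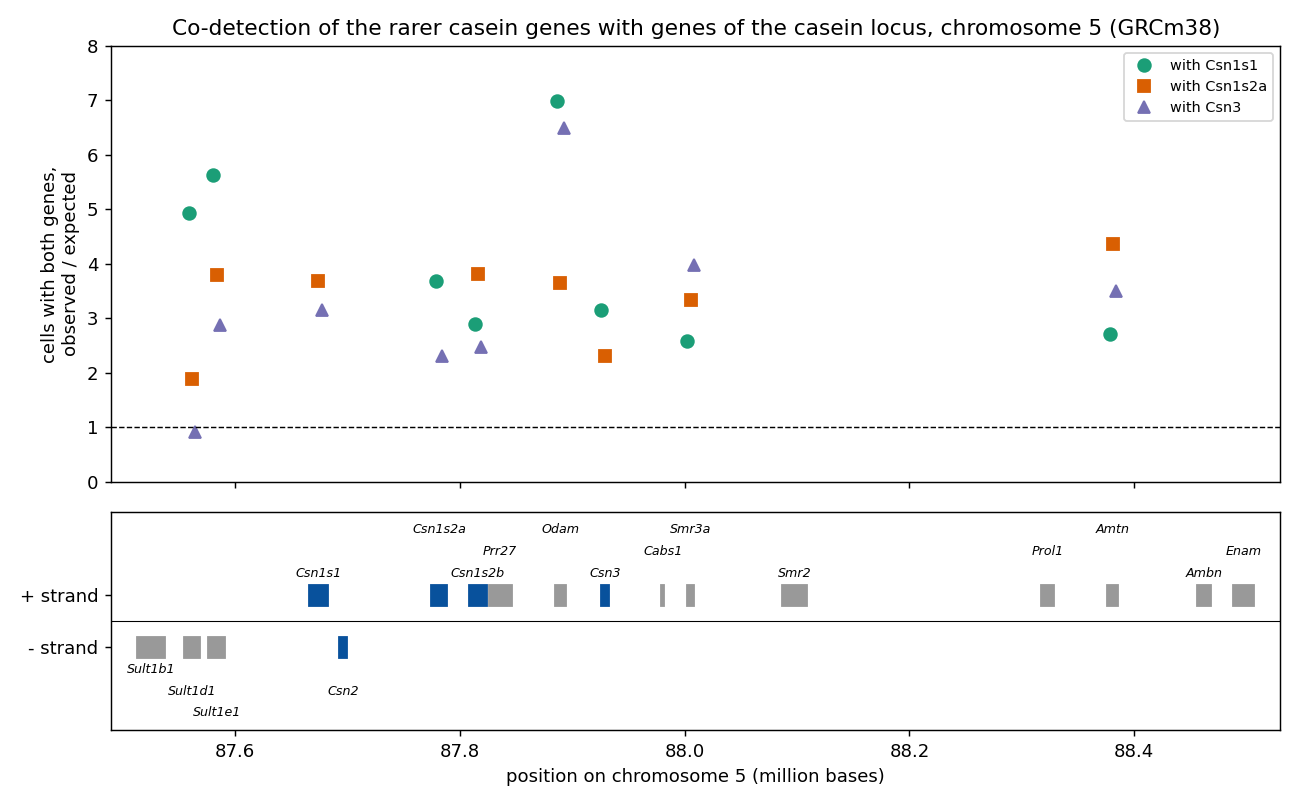
Cells with both genes, as a multiple of the number expected within library and Aire level (top), for Csn1s1, Csn1s2a and Csn3 with genes of the locus found in at least 50 cells, against position on chromosome 5 in GRCm38 (Mb), and the gene models by strand with caseins in blue and other genes in grey (bottom). Points lie between 0.909 and 6.99, with all but that of Csn3 and Sult1d1 above the dashed line at 1.

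The promoters shown are those of the 3 casein genes whose table entries hold a STAT5 motif. STAT5 carries the prolactin signal to casein genes in the mammary gland. The sequences are from RefSeq in build GRCm38.p6, 250 bases before to 50 after the start of the gene, and capitals mark TTCNNNGAA, which reads alike on both strands. They are chr5:87665958-87666257 on the plus strand for Csn1s1, chr5:87699376-87699675 on the minus strand for Csn2 and chr5:87774200-87774499 on the plus strand for Csn1s2a.
Csn1s1: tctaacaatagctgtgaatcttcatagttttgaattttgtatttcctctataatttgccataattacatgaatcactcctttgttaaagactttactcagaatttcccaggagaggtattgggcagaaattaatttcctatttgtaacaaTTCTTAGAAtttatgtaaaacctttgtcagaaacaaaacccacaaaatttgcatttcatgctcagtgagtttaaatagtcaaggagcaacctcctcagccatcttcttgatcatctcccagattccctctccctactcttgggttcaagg
Csn2: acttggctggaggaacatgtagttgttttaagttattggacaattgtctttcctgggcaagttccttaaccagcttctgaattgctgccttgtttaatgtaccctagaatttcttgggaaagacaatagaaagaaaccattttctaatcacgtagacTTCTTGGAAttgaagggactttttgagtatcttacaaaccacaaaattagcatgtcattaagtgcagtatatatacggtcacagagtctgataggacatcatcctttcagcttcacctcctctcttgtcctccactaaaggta
Csn1s2a: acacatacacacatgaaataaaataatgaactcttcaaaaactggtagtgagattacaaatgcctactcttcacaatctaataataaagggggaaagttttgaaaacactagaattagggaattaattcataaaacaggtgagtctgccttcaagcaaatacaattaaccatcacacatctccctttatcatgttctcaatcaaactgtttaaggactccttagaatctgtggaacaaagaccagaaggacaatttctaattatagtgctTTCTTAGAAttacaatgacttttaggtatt

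The motif stands 100 bases before the start of Csn1s1 as TTCTTAGAA and 93 before that of Csn2 as TTCTTGGAA, and 20 bases after that of Csn1s2a as TTCTTAGAA. These starts are those of the promoter table, and of the 6 members in it only Csn1s1 has a start that is also an end of its gene span in the annotation. Of the 6 members in the table, 3 hold TTCNNNGAA in these 300 bases, as do 2726 of all 32851 promoters (8.30%). TATAAA, searched on both strands, is in the promoter of Wfdc18, 31 bases before the start, and in 13.6% of all promoters. Csn3 has no entry. A match describes the letters and is not a site or a cause.

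The anti-RANKL course was compared at 2000 UMIs per cell, since the libraries differ in depth. The 172 cells below that depth, 111 of week 4 and 61 of week 6, were left out. The share of cells with Csn2 was lowest at week 4. It was 45.8% in the week 2 isotype control (95% CI 42.8 to 48.7) and 6.71% in anti-RANKL week 2, 1.39% at week 4 (0.832 to 2.17), 14.3% at week 6, and 36.2% at week 10 against 37.6% in the week 10 isotype control. The Aire trace was at 12.6%. At full depth, cells with Aire had the same low point, with 21.8% of all cells in the Aire trace, 68.0% and 66.0% in the controls, and 17.1%, 4.27%, 33.5% and 57.8% in anti-RANKL weeks 2, 4, 6 and 10. Within cells with Aire, Csn2 was at 58.3% in the week 2 control and 26.1%, 13.6% and 21.9% in anti-RANKL weeks 2, 4 and 6, then 51.4% at week 10 against 47.9% in its control. The week 4 value rests on 62 cells (95% CI 6.21 to 24.7). Above 1.5, the shares were 69.6% and 55.5% in the controls. They were 52.9%, 26.4%, 33.4% and 57.4% along the course, so Csn2 was also low above 1.5 at weeks 4 and 6. Median Aire values of the cells above 1.5 were 2.24 and 2.21 in the controls, and 2.08, 1.88, 1.99 and 2.22 along the course. In Aire 0 cells the Csn2 share was 19.2% and 17.6% in the controls and 2.70%, 0.796%, 10.1% and 15.4% along the course. In the cells with Ptprc at full depth, Csn2 was in 20 of 34 and 20 of 24 in the controls, and in 5 of 38, 0 of 24, 4 of 11 and 18 of 33 along the course. The 0 of 24 at week 4 allows up to 12.5%, close to the 13.2% of week 2, and these cells had a median depth of 3097.5 UMIs, against 13124.5 and 10901 in the controls.

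**Figure D3:**
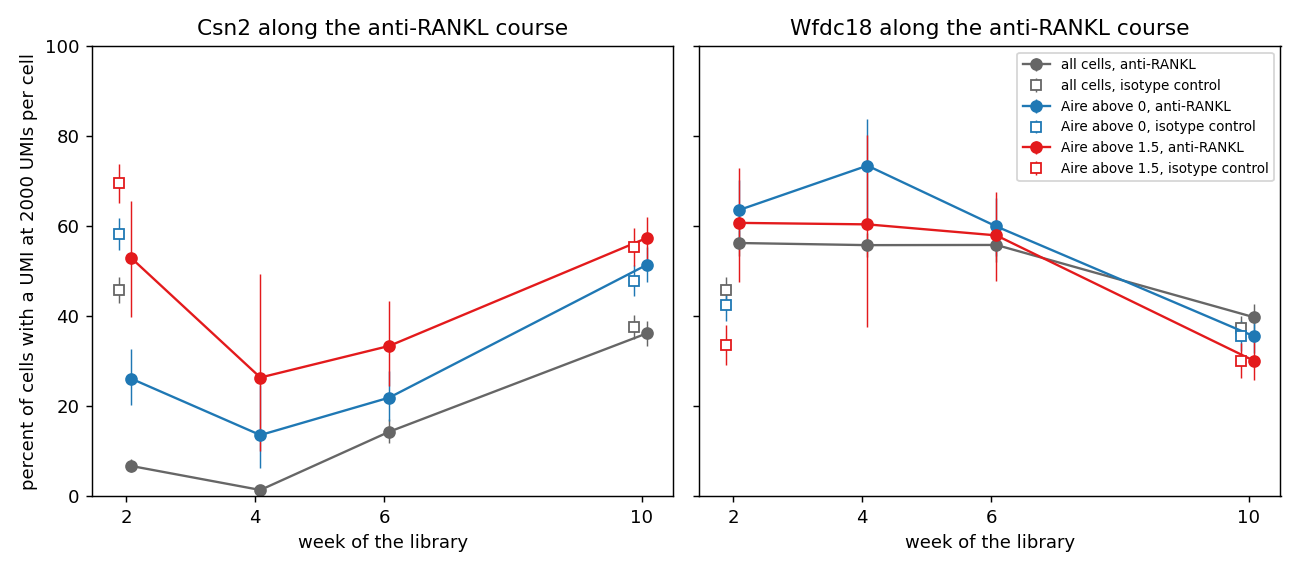
Percent of cells with a UMI of Csn2 (left) and Wfdc18 (right) at 2000 UMIs per cell, against the week of the library, in all cells, in cells with Aire above 0 and in cells with Aire above 1.5, for anti-RANKL (filled points, joined) and isotype control (open squares), with bars for 95% Clopper-Pearson intervals (counting error only). Csn2 has its lowest share at week 4 in all 3 sets of cells, at 1.39%, 13.6% and 26.4%, and Wfdc18 is higher than in the controls at weeks 2, 4 and 6.

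As ratios of shares, with 1 library on each side and no test, the caseins had low values at weeks 2, 4 and 6. Against the week 10 control, week 4 had a Csn2 ratio of 0.0369, and Csn1s1, Csn1s2a and Csn3, which the control shows in 1.01%, 1.32% and 0.967% of cells, are not listed at week 4. With a gene not listed counted as 0, for members and all genes alike, 4 of the 5 members compared lie at or below 0.5 times, as do 19.5% of all genes. In cells with Aire the Csn2 ratio was 0.284, the same 4 lie there, and 22.1% of genes do. Of the 4, Csn2 alone has a value at week 4, and the others were under the authors' limit of 3 cells. In cells with Aire, 0 of 62 allows a share of up to 4.84% at full depth. The control at 2000 UMIs had 1.31% for Csn1s1, 1.82% for Csn1s2a and 1.21% for Csn3, so none of these is bounded below 0.5. Wfdc18 had a ratio of 1.49 in all cells and 2.06 in cells with Aire, where 13.8% of genes reached 2 times. Week 2 against its own control gave ratios of 0.147 for Csn2, 0.0458 for Csn1s1, 0.0585 for Csn1s2a and 0.166 for Csn3, so 4 of 5 members lie at or below 0.5 (15.3% of genes). In its cells with Aire, Csn2 (0.448) and Csn1s2a (0.257) did, Csn3 was at 0.742, and with Csn1s1 and the unlisted Wap counted as 0 it is 4 of 6, against 12.3% of genes. For Csn1s1, 0 of 203 cells allows a share of up to 1.48% at full depth, over the 1.18% of the control at 2000 UMIs, so neither it nor Wap is bounded below 0.5. At week 6 against the week 10 control, Csn2 (0.381), Csn1s1 (0.382), Csn3 (0.195) and the unlisted Csn1s2a lie there. That is 4 of 5 members, where 17.1% of genes do. In cells with Aire the ratio of Csn2 was 0.458, again with 4 of 5 members and 15.9% of genes. For Csn1s2a, 0 of 241 cells with Aire allows a share of up to 1.24% at full depth. The control had 1.82% at 2000 UMIs, so Csn1s2a is not bounded below 0.5 in these cells. By week 10 the caseins were near their control, with ratios of 0.963 for Csn2, 0.850 for Csn1s1, 0.841 for Csn1s2a and 0.681 for Csn3. No member was at or below 0.5 times there, and 1.10% of genes were in all cells and 1.94% in cells with Aire. Wap, compared there only in cells with Aire, was at 0.648% against 0.189% in the control, a ratio of 3.43. It rests on 8 and 5 positive cells at full depth.

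The share of cells with Wfdc18 at 2000 UMIs was higher at weeks 2, 4 and 6 in all cells and in cells with Aire, while its summed level depended on the cells counted. In UMIs per 10000 it was 20.6 and 15.0 in all cells of the controls of weeks 2 and 10, and 27.4, 24.3, 15.8 and 17.3 along the course. In cells with Aire it was 13.7 and 11.4 in the controls and 28.4, 39.5, 16.1 and 12.2 along the course. In Aire 0 cells, given above, weeks 4 and 6 lie under both controls. Its share in all cells was 45.8% and 37.3% in the controls of weeks 2 and 10 and 56.2%, 55.8%, 55.8% and 39.7% along the course, with 61.4% in the Aire trace. In cells with Aire it was 42.4% and 35.6% in the controls and 63.5%, 73.4%, 59.9% and 35.5% along the course. Weeks 2, 4 and 6 lie above both controls in these sets, and week 10 lies at its control. In Aire 0 cells the shares of weeks 2, 4 and 6, 54.7%, 54.9% and 53.5%, lie close to the 53.1% of the week 2 control. The weeks 4 and 6 libraries share the week 10 control and differ from it in age, so age and treatment cannot be told apart there. The median ratio over all genes compared was 0.998 at week 4 and 1.03 at week 2, and the housekeeping gene Emc7 had a week 4 ratio of 0.993.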

How the data were processed

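The authors aligned reads to mm10 with Cell Ranger 2.2.0 and kept, in Seurat 2.3.4, genes in at least 3 cells and cells with 200 to 7500 genes and at most 10% mitochondrial reads. What they deposited is a natural log, taken of UMIs per 10000 with 1 added. The methods name another scale factor, but the values of each cell sum to 10000, and whole UMI counts were recovered within a tolerance of 0.001. Only the tables of single libraries were read. Doublets were not removed. Intervals are exact Clopper-Pearson at 95% and cover counting error only, and a count of 0 is read as up to 3 counts. At 2000 UMIs, shallower cells were left out. limma 3.58.1 in R 4.3.3 fitted log2(CPM + 10), CPM from UMIs, of pools of at least 10 cells, genes with a UMI in at least 50 cells, Aire left out, with trend and robust off and Benjamini-Hochberg adjustment, called under 0.05. Lists were described by counts and medians. Ratios of shares used genes at 0.5% or more in either library. Python 3.11.15, NumPy 2.4.6, pandas 2.3.3, SciPy 1.17.1 and Matplotlib 3.10.9 were used. The rule for named genes takes all 7 members, up to 5 of the most detected genes of each list, and the 3 genes nearest to each member by r. Xdh, Sult1e1, BC037156, Ccl21a, Ackr4 and Trpm5 stand outside it and were chosen after their values were seen. Markers of thymic and mammary luminal epithelium are also named beyond 5 per list, and 1700066N21Rik is named for its overlap alone. The members and lists were chosen with earlier results of these data known. An earlier run had the variance trend on by mistake, and that fit is now an alternative. Alternatives were other depths, Aire limits, detection limits, cell sets, pseudocounts, filters, scalings, no block and leaving out each library.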

Additional observations from a re-analysis of the deposited data

How the results depend on the processing

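Of 1408 values of 149 results under alternatives, 93 values of the main results were the same in direction and interval or threshold, 19 moved and 6 reversed. Of the other values 1010 were the same, 265 moved, 4 reversed, 7 lost a call and 4 gained one. Leaving out cells with shared barcodes, chosen after seeing the data, left 139 of 139 the same. The cause of the moves was not tested. The share of cells above 1.5 with Csn2, 81.6%, was 58.3% at 2000 UMIs, 69.5% at 4000, 76.5% with an upper Aire limit of 1.0, 83.5% with 2.0, 71.8% from 2 UMIs, and 76.6% to 83.6% with a library left out. The pooled Wfdc18 difference of 1.28 points was -18.5 at 2000 UMIs, -18.0 at 4000, -0.175 with a limit of 2.0, -2.60 from 2 UMIs, and -3.52 to 4.88 with a library left out. Csn1s2a among cells with Csn1s1, 17.9%, was 10.8% at 2000 UMIs and 11.1% to 20.3% with a library left out. Csn2 in week 4 cells with Aire, 13.6%, was 26.4% above 1.5. Genes called above 1.5 ranged from 2665 to 3511 higher and 4379 to 5342 lower with a library left out. Up to 1.5, 1269 genes higher became 586 with no block, 777 with a limit of 1.0, 1990 with 2.0 and 886 to 1690 with a library left out. The 2064 lower became 1162, 1313 with a limit of 1.0, 1258 at 2000 UMIs and 1341 to 2522. With the variance trend on, chosen after seeing the data, 3284 and 4988 genes were called above 1.5 and 1286 and 2042 up to 1.5. Up to 1.5 the log2 difference of Csn3, 0.10, was -0.0846 with a limit of 1.0 and -0.10 to 0.20 with a library left out, and that of Wfdc18, 0.16, was -0.18 with a limit of 2.0 and -0.0361 to 0.31. Depth limits the rare members: most of their positive cells hold 1 UMI, weeks 4 and 6 are shallow, and libraries list only genes found in some of their cells, so a missing gene is not a measured 0.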

Other observations

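In the Aire trace library, zsGreen marks cells that made Aire during the tamoxifen course and their descendants. Csn2 had a UMI in 71.0% of the 221 cells with both Aire and zsGreen (95% CI 64.6 to 76.9) and in 31.8% of the 66 with Aire alone (20.9 to 44.4). Among cells without Aire, it was found in 17.2% of the 413 with zsGreen (13.7 to 21.2) and in 8.41% of the 618 with neither (6.35 to 10.9). At 2000 UMIs the 4 shares were 48.6%, 17.1%, 7.08% and 2.92%, in the same order, with median depths of 15173, 10644.5, 9268 and 7870 UMIs before thinning. Wfdc18 was found in 92.8%, 92.4%, 89.3% and 84.0% of the groups at full depth and in 55.6%, 67.5%, 63.6% and 61.4% at 2000 UMIs, so its share was lowest in the cells with both Aire and zsGreen at equal depth. This is 1 library, so the order has no replicate.

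Csn2 and Wfdc18 also differed between cells with Ccl21a above 4, a state of the medulla that makes the chemokine CCL21, and the rest. Csn2 was found in 11.5% of the 3451 cells above 4 and 52.8% of the 4769 others (3.66% and 35.0% at 2000 UMIs). Among cells with Aire the shares were 26.0% of 384 and 76.4% of 2677. Wfdc18 showed the opposite order, at 65.1% and 39.6% at 2000 UMIs, and did so in 7 of 7 libraries. Its median level in positive cells was 9.26 UMIs per 10000 above 4 and 2.76 in the others. The 5% of cells with the most Wfdc18, 411 cells with at least 116 UMIs per 10000, held 55.4% of its UMIs. Of those cells 65.0% had Ccl21a above 4, against 42.0% of all cells. Aire above 1.5 was found in 4.38% of them, against 21.5% of all, and Aire up to 1.5 in 24.1%, against 15.7%, so cells with little Aire were more frequent there and cells with much Aire less. The Aire trace gave 106 of the 411 (25.8%, against 16.0% of all cells). All 15 cells with Lalba, each of which had Aire, were among those at or below 4, as were 2677 of the 3061 cells with Aire. The 1030 cells with Ackr4 had Wfdc18 in 36.9% and Csn2 in 6.66% at 2000 UMIs, and the 545 with Trpm5, a tuft cell gene, in 55.7% and 16.2%.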
